A study of Mus musculus with 5 samples.

Results

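NEUROD2 ChIP-Seq peaks were examined at 10 genes of the Eph receptor and ephrin families, namely the receptors Ephb1, Ephb2, Ephb3 and Ephb6 and the ligands Efna2, Efna3, Efna5, Efnb1, Efnb2 and Efnb3. The locus of each gene was its longest annotated transcript on mm10 with 50 kb on either side. Peaks whose midpoint lay in a locus were taken, and overlapping peaks of different antibodies were merged into 1 region. The 10 loci spanned 2014 kb and held 229 of the 94621 peaks of the series, which formed 126 of 53837 merged regions. The genes were 10 of 21938 annotated protein-coding genes. The libraries came from chromatin of the cerebral cortex of BALB/c mouse embryos at E14.5, and the labels give no treatment. NEUROD2 is a bHLH transcription factor of cortical excitatory neurons. It was precipitated with a mouse antibody (ab1) and with a pair of rabbit antibodies (ab2 and ab3), and peaks of each were called against a GFP antibody precipitate of the same host species. The rabbit antibodies therefore had a common control library.

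Each antibody gave 1 library from pooled embryos, so the 3 libraries measured a single condition and no contrast between conditions could be tested. The whole cortex was used, so progenitors, neurons and other cells contributed to the chromatin, and no marker of cell type could be read from peak lists. Over the genome ab1 had 51841 peaks, ab2 had 35310 and ab3 had 7470. Read depth cannot be read from peak lists and was not used here, and the absence of a peak means only that none was called in that library. The values given for peaks are the scores of the peak caller, which are 10 times the −log10 of its p-value. They were not scaled between libraries, so a score of 1 antibody cannot be read as a stronger or weaker signal than that of another.

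Eph receptors are receptor tyrosine kinases that bind ephrins on the surface of a neighbouring cell. Signals run in both directions, forward into the cell with the receptor and in reverse into the cell with the ephrin, and they guide growing axons, place migrating neurons and shape synapses. Ephrins of the A class are held to the membrane by a GPI anchor and bind mainly EphA receptors, whereas ephrins of the B class span the membrane and bind mainly EphB receptors.

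The bHLH factors bind E-boxes, CANNTG. An extended E-box was defined as the core CAGCTG, the core CAGATG, its reverse complement CATCTG or the core CATATG, followed by a G or a T, on either strand, and it was searched in the central 200 bp of each region. Regions said to hold one, or none, are so counted for that window unless the whole region is named. The first set of sequences shows the central 200 bp of the regions that led their locus in number of antibodies and in ab1 score, where that stretch held an extended E-box and no UTR. These were a region downstream of Ephb6, one in intron 1 of Efna5 and one with its midpoint in intron 2 of Efnb1. Of the 200 bases shown for Efnb1 the first 97 are coding sequence of exon 2, and those for Ephb6 and Efna5 hold no coding sequence of these genes. Sequences are from GRCm38 (mm10), read 5′ to 3′ on the strand of the gene, and capitals mark every CANNTG, extended or not.
Ephb6, chr6:41637432-41637631, plus strand: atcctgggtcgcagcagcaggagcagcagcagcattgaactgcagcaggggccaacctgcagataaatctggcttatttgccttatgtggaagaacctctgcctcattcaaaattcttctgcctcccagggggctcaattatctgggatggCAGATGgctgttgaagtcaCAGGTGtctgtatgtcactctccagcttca
Efna5, chr17:62658162-62658361, minus strand: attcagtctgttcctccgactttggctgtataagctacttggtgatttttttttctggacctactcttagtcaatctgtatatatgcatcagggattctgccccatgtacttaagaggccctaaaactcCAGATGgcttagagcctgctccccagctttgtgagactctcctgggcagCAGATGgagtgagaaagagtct
Efnb1, chrX:99145473-99145672, plus strand: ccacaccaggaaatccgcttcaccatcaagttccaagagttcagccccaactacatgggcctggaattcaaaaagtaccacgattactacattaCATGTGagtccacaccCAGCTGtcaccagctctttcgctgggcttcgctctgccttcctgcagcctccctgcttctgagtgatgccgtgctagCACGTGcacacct

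The second set shows 30 bases around the extended E-box closest to the midpoint of each region that had peaks of all 3 antibodies and held such a site in that window. There were 11 of these regions, chosen for display after their values were known, of which 6 lay at Ephb1, 2 at Ephb2, 1 at Ephb6 and 2 at Efnb1. Capitals mark the 6 central bases of the E-box.
Ephb1, chr9:102231403-102231432, minus strand: cacatgcccttcCAGCTGgtctggtccccg
Ephb1, chr9:102184181-102184210, minus strand: agatggcagaggCAGATGgagacagttacc
Ephb1, chr9:102039451-102039480, minus strand: tgtagatgcctcCAGCTGgtgaccacagcc
Ephb1, chr9:102001693-102001722, minus strand: tccagactctgaCAGATGgtaaggcagatg
Ephb1, chr9:101981382-101981411, minus strand: gaatgcaaaaagCAGATGgcaagccaaccc
Ephb1, chr9:101939141-101939170, minus strand: gggagcagtcaaCAGCTGctgctgacagcc
Ephb2, chr4:136825387-136825416, minus strand: ttatggcgacgaCATATGtccacagcacca
Ephb2, chr4:136817289-136817318, minus strand: ggctgatccttgCATCTGgaatactgcttc
Ephb6, chr6:41637571-41637600, plus strand: tatctgggatggCAGATGgctgttgaagtc
Efnb1, chrX:99145571-99145600, plus strand: tgagtccacaccCAGCTGtcaccagctctt
Efnb1, chrX:99148778-99148807, plus strand: ctgcctcctggcCAGCTGcccaccccggtg

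The core was CAGATG in 5 of these 11 sites, CAGCTG in 5 and CATATG in 1. The sites lay between 13 and 70 bp from the midpoint of their regions. The 2 Efnb1 sites had the CAGCTG core, and at Ephb1 each of these cores was found at 3 of 6 sites.

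All 10 loci held a region with peaks of at least 2 antibodies, and 77 of the 126 regions were of this kind. Of all protein-coding genes, 67.6% had such a region by the same rule. With 10 kb in place of 50 kb on either side 9 of the 10 did, Efna2 being the exception, against 46.4% of protein-coding genes with the same flanks. Because the genes were chosen with earlier results of these data known and their loci differ in length, the count was not tested. The 77 regions were 61.1% of the merged regions at the loci, against 59.9% of all merged regions. All 58 regions with exactly 2 antibodies had peaks of ab1 and ab2, and 19 regions had peaks of all 3. Those 19 were 24.7% of the 77, against 22.2% of all regions with at least 2 antibodies. They lay at 6 of the 10 genes, and 26.7% of protein-coding genes had a region with 3 antibodies. Ephb1, Ephb2, Ephb6, Efnb1, Efnb2 and Efnb3 had them, and Ephb3, Efna2, Efna3 and Efna5 did not. Without ab1 or without ab2 only the 19 regions with 3 antibodies were left of the 77, whereas leaving out ab3 changed none.

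Both of the longest EphB loci held most of the regions. Ephb1 and Ephb2 together had 42 of the 77 regions with at least 2 antibodies, 54.5%, and 14 of the 19 with all 3. By family, the 4 EphB loci had 49 regions with at least 2 antibodies and 15 with 3, the 3 ephrin-B loci had 14 and 4, and the 3 ephrin-A loci had 14 and 0. The gene's own TSS was the closest for 28 of the 49 EphB, 10 of the 14 ephrin-B and 4 of the 14 ephrin-A regions. Highest ab1 scores were 3100 at the EphB loci, 1179 at the ephrin-B loci and 651 at the ephrin-A loci. The 3100 was reached at Ephb1 and Ephb2 only, and Ephb6 reached 1120. These maxima come from unlike numbers of regions and lengths of locus, and differences between families were not tested. The median number of regions with at least 2 antibodies was 5 over the 10 genes and 1 over all protein-coding genes. Per 100 kb of locus the medians were 3.97 and 0.95, and Efna5 alone of the 10 lay below the second of these. Ephb2 had the highest density, 6.59 regions per 100 kb, followed by Efna3 with 6.42 and Efnb1 with 5.32.

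**Figure D1:**
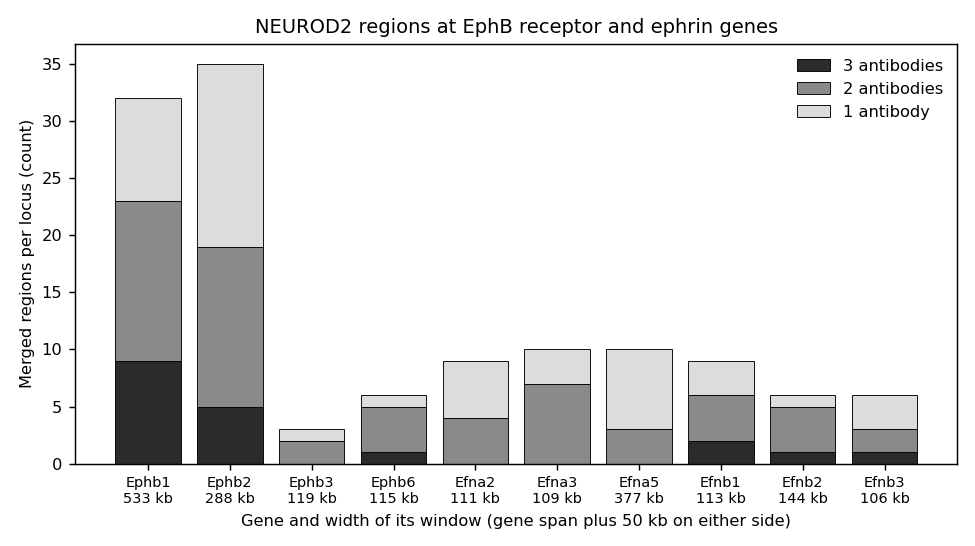
Number of merged NEUROD2 regions at each of the 10 loci, with the width of the locus in kb under each gene name. Dark, mid and light grey stand for regions with peaks of 3, 2 and 1 antibodies, and the bars of Ephb1 and Ephb2 reach 32 and 35 regions whereas Ephb3 has 3.

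The antibodies differed in how many peaks they gave but shared the loci in similar proportion. Of the 229 peaks 123 came from ab1, 86 from ab2 and 20 from ab3, which were 0.237%, 0.244% and 0.268% of the peaks in each library. No region was called by ab3 alone, 41 were called by ab1 alone and 8 by ab2 alone. In the 77 regions the median score was 332 for ab1 and 168 for ab2, against 278 and 140.3 in all regions with at least 2 antibodies. Within the 19 regions with 3 antibodies the median ab3 score was 92.5, against 90.5 in all. The score of ab1 was above that of ab2 in 68 of the 77 regions, 88.3%, close to the 89.0% of all regions with both. The score of ab3 was the lowest of the 3 in each of its 19 regions. Regions called by ab1 alone had low scores, with a median of 78.3 and a highest value of 215 in intron 1 of Efna5.

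Ephb1 encodes a receptor known for steering retinal axons at the optic chiasm. Its gene spans 433 kb on the minus strand of chromosome 9, where ab1 gave 32 peaks at its locus, ab2 gave 24 and ab3 gave 9. These formed 32 regions, of which 23 had at least 2 antibodies and 9 had all 3. Of the 23 regions, 21 lay inside the gene. Its locus was long, 533 kb against a median of 117 kb over protein-coding genes, and 0.273% of these genes had at least as many regions, whereas 7.23% reached its density of 4.32 per 100 kb. The strongest region, chr9:102038640-102040176, scored 3100 with ab1, 3100 with ab2 and 1110.4 with ab3. No more than 1.41% of ab1 peaks, 0.215% of ab2 peaks and 0.295% of ab3 peaks scored as high, and 3100 is a value that 661 ab1 peaks and 62 ab2 peaks had in common. The region was in intron 5, 315 kb from the TSS, and its midpoint lay on the last exon of a shorter coding Ephb1 transcript.

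The other 8 regions of Ephb1 with 3 antibodies were spread over the gene from intron 1 to intron 12. A region 55.9 kb into intron 1 scored 2860.0 with ab1, 951 with ab2 and 182 with ab3. Another in intron 1, at 123 kb, scored 2296, 948 and 180.0 with the same antibodies. A region on coding exon 7 had the lowest ab1, ab2 and ab3 scores of the 9, at 563, 412 and 60.6. Thus even the weakest of these regions had an ab1 score above the median of 332 over the 77 regions. Of the 23 regions, 18 held an extended E-box, the highest number at any locus, and Ephb1 also had the most regions with at least 2 antibodies. The share was higher at Efna5, with 3 of 3 such regions, and at Ephb6, with 4 of 5. The TSS of 9630041A04Rik was closer than that of Ephb1 for 10 of the 23 regions, all of them in or beyond intron 3, and the leading region was among these.

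Ephb2 encodes a receptor with roles in axon guidance across the midline and at glutamatergic synapses. It spans 188 kb on the minus strand of chromosome 4, and 32 ab1 peaks, 23 ab2 peaks and 6 ab3 peaks formed 35 regions at its locus. At least 2 antibodies were found in 19 and all 3 in 5. The leading region, chr4:136698304-136699847 in intron 3, scored 3100 with ab1, 1945 with ab2 and 520 with ab3. A region 18.7 kb from the TSS in intron 1 equalled it in number of antibodies and in ab1 score, and came second by its ab2 score of 1759, with 128 for ab3. Another, 133 kb from the TSS in intron 3 scored 2765, 803 and 114. These 3 regions were the strongest with ab1 at Ephb2 and lay in the introns with most of its regions. Extended E-boxes were found in 9 of the 19 regions, and the leading region held none in its central 200 bp, the nearest being 110 bp from the midpoint, whereas the intron 1 region with the same ab1 score held one 20 bp from its midpoint. Ephb2 had its own TSS as the closest for 11 of the 19, and Lactbl1 for 6. The leading region was among those of Lactbl1 and the intron 1 region among those of Ephb2.

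**Figure D2:**
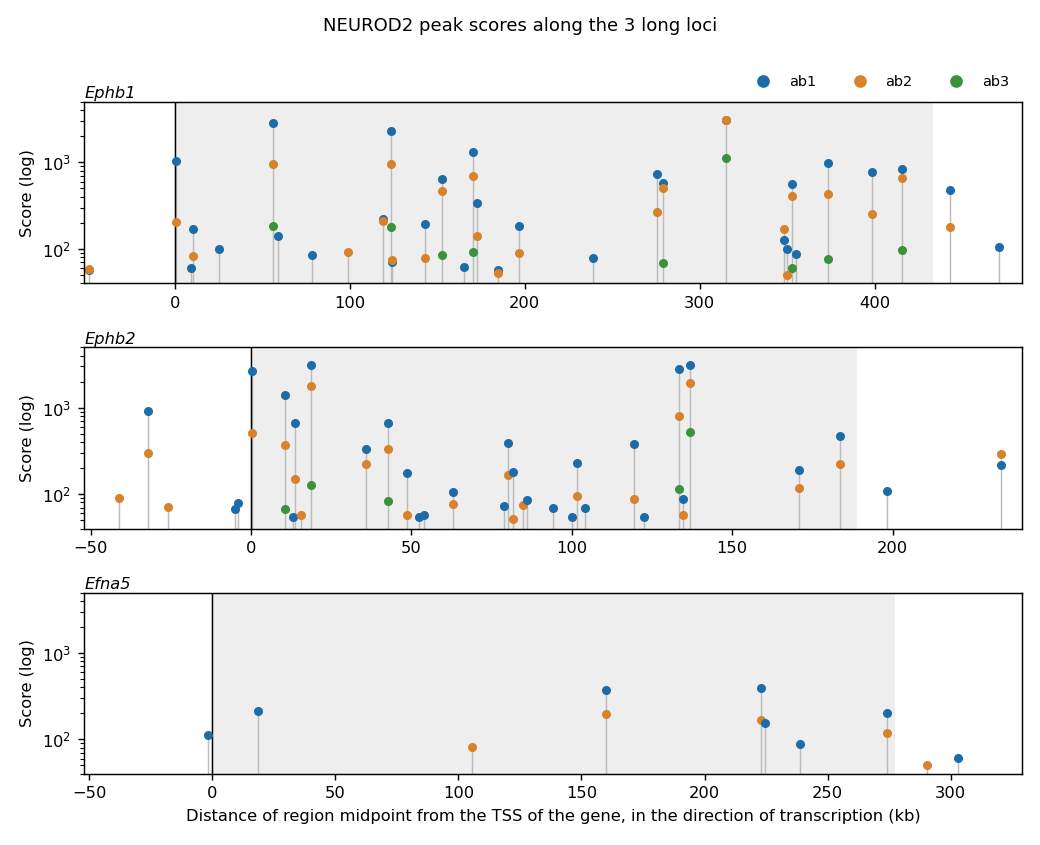
Scores of NEUROD2 peaks (log axis) against the distance of the region midpoint from the TSS in kb for Ephb1, Ephb2 and Efna5, with ab1 in blue, ab2 in orange and ab3 in green. Grey shading marks the gene and the vertical line its TSS. The ab3 peaks of Ephb1 and Ephb2 lie within introns and a coding exon, and Efna5 has none although its gene spans 277 kb.

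Ephb3, which acts with Ephb2 in forming the corpus callosum, spans 18.6 kb on the plus strand of chromosome 16. It had 3 ab1 peaks, 2 ab2 peaks and no ab3 peak, and 2 regions with at least 2 antibodies. A region over the TSS, chr16:21204302-21205857, scored 774 with ab1 and 524 with ab2. The other, chr16:21210637-21211775 in intron 1, scored 1839 with ab1 and 245 with ab2, and its midpoint lay 111 bp from the start of a shorter coding Ephb3 transcript. Both were GC-rich, at 73% and 71.5%, and neither held an extended E-box in its central 200 bp. Ephb3 therefore had few regions, and the ab1 score of the intron 1 region was matched by only 4.08% of ab1 peaks. Its density of 1.69 per 100 kb was reached by 37.2% of protein-coding genes.

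Ephb6 encodes a receptor whose kinase domain is inactive. The gene spans 15.0 kb on the plus strand of chromosome 6, and its locus had 6 regions, 5 with at least 2 antibodies. None of the 5 lay inside the gene. The leading region was the only one with ab3, at chr6:41637114-41637949, and scored 1120.2 with ab1, 500.2 with ab2 and 108 with ab3. It was 32.1 kb downstream of the Ephb6 TSS and 1.13 kb from the TSS of Trpv6, the closest coding gene. A region 278 bp upstream of the Ephb6 TSS scored 173 with ab1 and 78.3 with ab2, so the region at the TSS was the weakest of the 5 with ab1. Extended E-boxes were found in 4 of the 5, the region 278 bp upstream of the TSS being the exception. The remaining region of the locus was called by ab1 alone, with a score of 137. It lay inside the gene, in intron 1 at 880 bp from the TSS, and held an extended E-box 8 bp from its midpoint.

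The ephrin-A ligands had no region with 3 antibodies. Efna2 and Efna5 encode ligands that set up topographic maps of axons, and Efna3 encodes a ligand found on astrocytes. At Efna2, on chromosome 10, 10 ab1 peaks and 4 ab2 peaks formed 9 regions, 4 with both antibodies. All 4 were outside the gene and closest to other genes, Atp5d, Midn, Cirbp and Mum1, with 1 region each. The highest scores, 383 with ab1 and 225 with ab2, belonged to chr10:80147535-80152142 next to Midn, which was also the widest of the 77 regions at 4608 bp. At the Efna2 TSS itself only ab1 gave a peak, with a score of 98.9.

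Efna3, on the minus strand of chromosome 3, had 10 regions, of which 7 had peaks of ab1 and ab2. Its locus also holds Efna1 and Efna4, which encode ligands of the same class, and each of these was the closest coding gene for 3 of the 7 regions, whereas Efna3 was closest for 1. The leading region, chr3:89332388-89333721, lay 4.97 kb from the Efna4 TSS and scored 651 with ab1 and 230 with ab2. The region of Efna3 itself covered its TSS, with the midpoint 1.06 kb into intron 1, and scored 424 with ab1 and 67.6 with ab2. Scores at the other 5 regions were between 55.6 and 303 with ab1 and between 55.1 and 106 with ab2. The density at Efna3 was thus made up mostly of regions nearer to its neighbours.

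Efna5 spans 277 kb on the minus strand of chromosome 17 and had 10 regions, 3 of them with ab1 and ab2. These 3 were all inside the gene and each held an extended E-box. The leading region, chr17:62657783-62658740, was 223 kb from the TSS in intron 1 and scored 393 with ab1 and 167 with ab2. A region at 160 kb, also in intron 1, scored 376 and 199, and a region on the 3′UTR exon scored 202 and 120. Hence the leading region had the highest ab1 score but not the highest ab2 score of the 3. The density of 0.795 per 100 kb was reached by 59.0% of protein-coding genes, so the Efna5 locus was not dense in regions.

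Among the ephrin-B ligands, Efnb1 is X-linked and encodes a ligand of cortical progenitors. Its gene spans 12.9 kb on the plus strand, and 9 ab1 peaks, 7 ab2 peaks and 2 ab3 peaks formed 9 regions. Of these, 6 had at least 2 antibodies, and Efnb1 had the closest TSS for all 6. The leading region, chrX:99144754-99146392 with its midpoint in intron 2, scored 1179 with ab1, 541 with ab2 and 51.0 with ab3. The other region with 3 antibodies, on the 3′UTR exon, scored 836, 353 and 54.5. Both ab3 scores were near the lowest in that library, since 98.1% of ab3 peaks scored at least as high as the leading region. A region 105 bp upstream of the TSS scored 296 with ab1 and 180 with ab2.

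Efnb2, which marks arterial endothelium and is also made by neural cells, spans 43.8 kb on the minus strand of chromosome 8. Of its 6 regions 5 had at least 2 antibodies. The leading region, chr8:8619989-8622698 in intron 4, scored 1033 with ab1, 466 with ab2 and 95.3 with ab3. At the TSS ab1 scored 658 and ab2 155. In 2 of the 5 regions the ab2 score was the higher one, at 458 against 171 in a region 29.0 kb upstream and at 380.2 against 330.2 in intron 1. The libraries thus ordered the Efnb2 regions differently.

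Efnb3 encodes a midline ligand that keeps corticospinal axons from crossing. The gene spans 6.11 kb on the minus strand of chromosome 11 and had 6 regions, 3 of them with at least 2 antibodies and none of these inside the gene. The region with 3 antibodies, chr11:69552351-69553651, was 7.20 kb from the TSS, downstream of the gene, and scored 279 with ab1, 165 with ab2 and 55.5 with ab3. Dnah2 was closest for this region and 1 other, and Atp1b2 for the remaining region. At the TSS of Efnb3 only ab1 gave a peak, with a score of 61.5 that 88.2% of ab1 peaks reached.

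**Figure D3:**
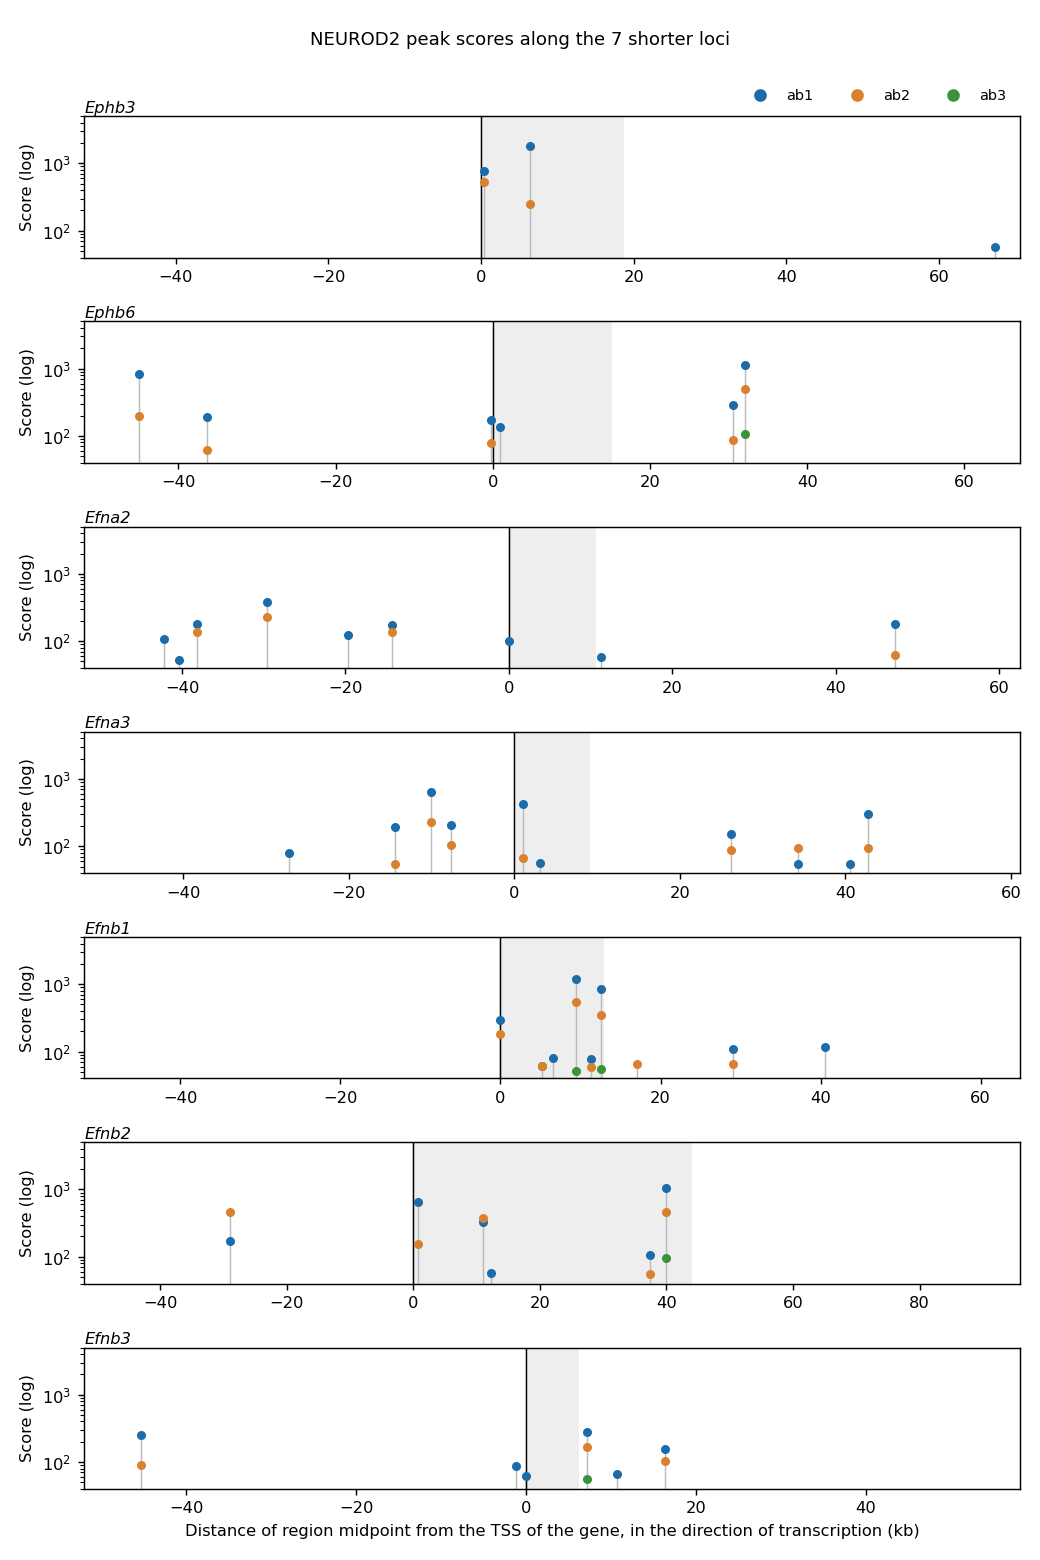
Scores of NEUROD2 peaks (log axis) against the distance of the region midpoint from the TSS in kb for the 7 shorter genes, with ab1 in blue, ab2 in orange and ab3 in green, and grey shading for the gene. Efnb1 and Efnb2 have their regions with 3 antibodies inside the gene, Ephb6 and Efnb3 downstream of it, and Ephb3, Efna2 and Efna3 have none.

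Of the 77 regions 52 lay inside the genes, 67.5%, where gene bodies made up 50.4% of the length of the loci. Ephb1 and Ephb2 had 38 of the 52, and at the other 8 loci 14 of 35 regions were inside, with none at Ephb6, Efna2 and Efnb3. The 52 comprised 45 in introns and 7 on exons, and 19 of the intron regions were in intron 1. Another 14 were upstream and 11 downstream. The exon regions comprised 1 on a 5′UTR exon, 3 on coding exons and 3 on 3′UTR exons. Of the 77, 65 were more than 10 kb from the TSS of their gene and 34 more than 50 kb, with a median distance of 45.0 kb. The 19 regions with 3 antibodies were between 7.20 and 416 kb away with a median of 123 kb, and 17 of them were inside a gene. The TSS of another coding gene was closer for 35 of the 77 regions.

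Regions with at least 2 antibodies within 1 kb of the TSS were found at 6 of the 10 genes, Ephb1, Ephb2, Ephb3, Ephb6, Efnb1 and Efnb2, against 20.8% of protein-coding genes. None of them had an ab3 peak, so none was left without ab1 or without ab2. The highest ab1 score was at Ephb2, 2630 with 516 for ab2, and the highest ab2 score was at Ephb3, 524 with 774 for ab1. The lowest with both, at Ephb6, were 173 and 78.3. At Ephb1 the region at the TSS scored 1026 with ab1 and 205 with ab2. GC content in the central 200 bp was between 56.5% and 80.5%, no extended E-box was found there in any of the 6, and 2 held a CANNTG of some form. A further 8 regions lay within 1 kb of the TSS of a neighbouring coding gene. These counts use the TSS of the longest transcript. With any annotated TSS of the gene, 8 regions in place of 6 lay within 1 kb. The added ones were the Ephb3 region in intron 1, at 111 bp, and the region over the Efna3 TSS, at 273 bp.

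The 14 regions within 1 kb of any coding TSS were set beside the 63 farther away. An extended E-box was found in 3 of the 14, 21.4%, and in 43 of the 63, 68.3%. Over all regions with at least 2 antibodies the shares were 20.8% and 65.3%. A peak of ab3 was found in 0 of the 14 and in 19 of the 63, 30.2%, against 7.95% and 24.5% over all regions. The median GC content was 63.5% for the 14 and 54% for the 63, against 68% and 49.5%. In these 3 measures the loci and all regions had the same direction. The median ratio of the ab1 to the ab2 score did not, being 2.78 for the 14 and 1.97 for the 63 but 1.79 and 1.84 over all regions. GC content, presence of ab3 and E-box content thus moved together with the distance to a TSS, and their separate parts were not tested.

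**Figure D4:**
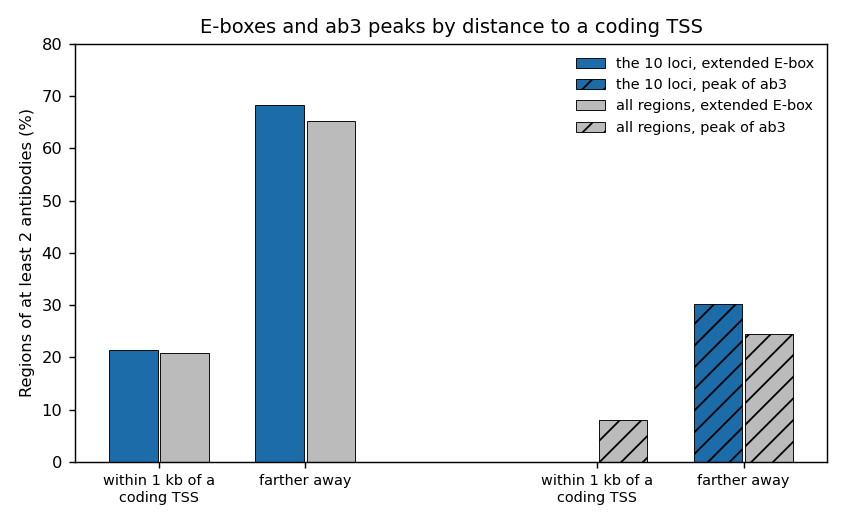
Percent of regions with at least 2 antibodies that held an extended E-box in the central 200 bp (plain bars) or a peak of ab3 (hatched bars), for the 10 loci in blue and all regions in grey. Both shares are lower within 1 kb of a coding TSS than farther away, in the loci (21.4% against 68.3% and 0 against 30.2%) as in all regions.

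Over the 77 regions an extended E-box was found in 46, 59.7% (95% Wilson interval 48.6 to 70.0), and the share was 59.6% over all regions with at least 2 antibodies. Windows of the same width beyond the ends of the regions held one in 21.4% of cases at the loci and in 22.3% over all regions. Among the 19 regions with 3 antibodies the share was 57.9% (36.3 to 76.9), against 63.4% over all such regions, and among the 49 with 1 antibody it was 55.1% (41.3 to 68.1). These intervals cover counting error only, and each holds the share of the corresponding class over the genome. The 46 regions held 63 extended E-boxes with a median distance of 36 bp from the midpoint, and 12 of the regions held more than 1. A CANNTG of any form was in 75.3% of the 77 regions and in 83.7% of all.

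By core, CAGATG was in 30 of the 77 regions, 39.0%, and in 43.1% of all regions. CAGCTG was in 27, 35.1%, and in 28.1% of all. CACATG was in 18.2% against 16.8% of all, CACCTG in 15.6% against 18.0%, CAAGTG in 10.4% against 11.6% and CATATG in 7.79% against 11.7%. CAAATG was found in 3 regions, 3.9%, where 14.6% of all regions held it, and CAACTG in 2 regions, 2.6%, against 11.4%. CACGTG was in 3 regions, 3.9% against 3.8%, and CAATTG in 0 of 77 against 2.35%. These shares were not tested. Regions without an extended E-box in the central 200 bp included the leading regions of Ephb2, Ephb3, Efna2, Efna3, Efnb2 and Efnb3. Each of these held from 2 to 8 extended E-boxes elsewhere in the region, the nearest being 110 bp from the midpoint at Ephb2 and 1308 bp at Efna2. No match says only that these letters are not in the window.

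A closest-gene score was computed by assigning each region with at least 2 antibodies to the coding gene with the closest TSS and summing weights that fell exponentially with distance over 5 kb. Of the 10 genes 3 were above the threshold of 1.08, the mean plus 1 SD of the 9601 protein-coding genes with an assigned region. Of all 21938 protein-coding genes, with or without such a region, 931 were above it, 4.24%. Efnb1 scored 1.67, Ephb3 1.21 and Ephb2 1.14, and the others scored 1.01 at Ephb1, 0.985 at Efnb2, 0.947 at Ephb6 and 0.809 at Efna3. All 7 were above the median of 0.528. Efna5 scored below 0.01, since its regions were far from the TSS, and Efna2 and Efnb3 scored 0, since no region had their TSS as the closest.

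When the score was computed from the peaks of each antibody alone, Efnb1 scored 2.75 with ab1, 1.71 with ab2 and 0.23 with ab3, an SD of 1.27 over the antibodies. Ephb2 scored 2.02, 1.16 and 0.17 (SD 0.925). Ephb3 scored 1.21 and 1.24 with ab1 and ab2 and 0 with ab3 (SD 0.706). Neighbours in the order of the 7 highest genes differed by less than these spreads. The spreads also hold the unlike peak numbers of the libraries and are not an error of the score from regions with at least 2 antibodies. The order of these genes was therefore not tested and is not read as a ranking. Without ab1 or without ab2 none of the 10 genes passed the threshold set anew in that setting, and without ab3 the same number as before did. The number of genes above the threshold thus rested on both ab1 and ab2. The genes called also moved with the decay length. At 1000 bp only Efnb1 passed the threshold of that setting, and at 50000 bp Ephb3 did not pass (2.06 against 2.58) whereas Ephb1 (3.23) and Efnb2 (2.96) did.

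**Figure D5:**
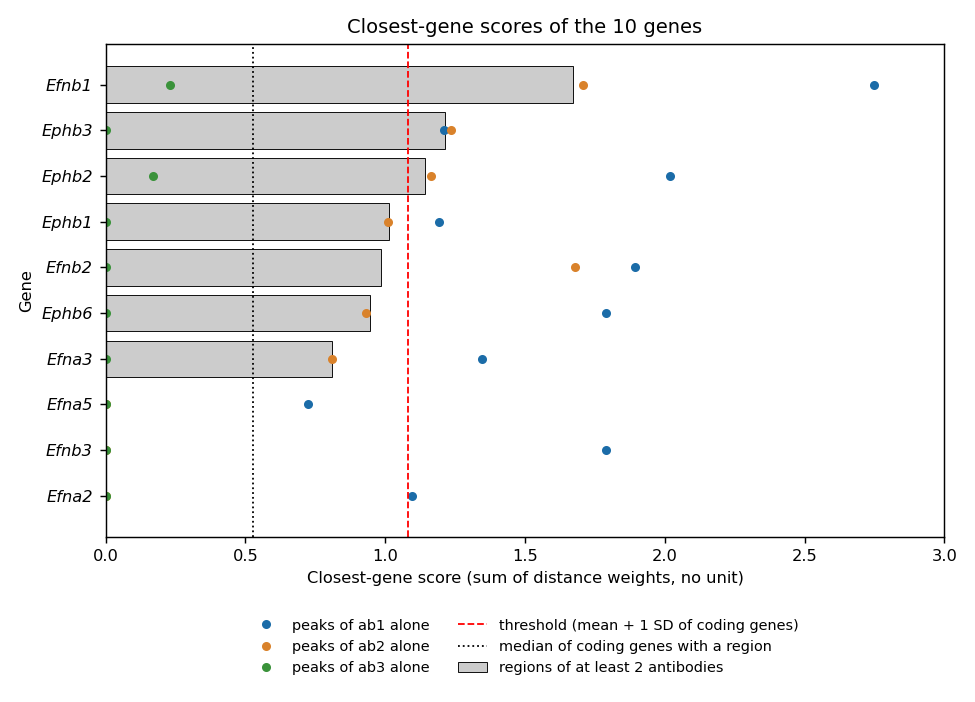
Closest-gene score of the 10 genes (sum of distance weights, no unit) from regions with at least 2 antibodies (bars) and from the peaks of each antibody alone (points, ab1 blue, ab2 orange, ab3 green). The dashed red line is the threshold of 1.08 for the bars, passed by Efnb1, Ephb3 and Ephb2, and the dotted line is the median of 0.528.

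The remaining Eph and ephrin genes were examined by the same rule, and 11 of 12 had a region with at least 2 antibodies, Ephb4 being without one, against 67.6% of protein-coding genes. Without ab1 or without ab2 this number was 6, against 26.8% of protein-coding genes in either setting. All 3 antibodies were found at 6 of the 12, against 26.7%, and 6 had a region within 1 kb of the TSS, against 20.8%. The receptors Epha3, Epha4 and Epha5 and the ligands Efna1 and Efna4 passed the closest-gene threshold, 5 of the 12 against 4.24%. Epha3, a receptor for ephrin-A5, had the most regions of the 12, with 20, followed by Epha4 with 11, Epha5 with 10, Epha6 with 7 and Efna4 with 6. The median was 5 regions per gene, the same as over the 10 genes, and the median density was 3.06 per 100 kb against 3.97. The loci of the 12 ranged from 105 to 1052 kb, and the counts and shares of genes were not adjusted for length. The loci of Efna1, Efna4 and Efna3 overlap, so their regions are partly the same.

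Of 31 genes for proteins that act in Eph and ephrin signalling, such as adaptors and kinases, 30 had a region with at least 2 antibodies, against 67.6% of protein-coding genes, and 17 did so without ab1 or without ab2, where the share was 26.8%. Adam10, a protease that cleaves ephrins, had none. Fyn, a kinase of the Src family that acts downstream of the receptors, had 23 regions, 7 of them with 3 antibodies. Kalrn, which activates Rac downstream of EphB receptors, had 16, and Tiam1, with a similar role, had 12. The adaptor Grip1, which binds ephrin-B tails, also had 12. Chn1, needed for repulsion through Epha4, scored 1.47 and was the only one of the 31 above the closest-gene threshold, which 4.24% of protein-coding genes passed. The median of 4 regions per gene and the median density of 1.66 per 100 kb lay below those of the 10 genes and above those of protein-coding genes, and this difference was not tested. The loci of this list ranged from 103 to 733 kb, against a median of 117 kb over protein-coding genes. Neither the counts nor the shares of genes with a region were adjusted for length.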

How the data were processed

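Peaks of 3 NEUROD2 ChIP-Seq libraries, 1 per antibody, were analysed. The authors mapped reads to mm10 with Bowtie, removed duplicate and multiply mapping reads and called peaks per antibody with MACS against GFP libraries. The deposited score of each peak is 10 times the −log10 p-value that the authors' peak caller gave, without scaling between libraries. Reads, GFP libraries and the read numbers of the libraries were not used here. Scores move with depth, which was not corrected for, and intervals cover counting error only.

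Peaks sharing at least 1 bp were merged. Midpoints were placed on GRCm38.p6 with GENCODE M21, and the longest-span transcript of each gene gave its TSS. Flanking windows for E-boxes began 1000 bp beyond the region. Regions described in full were, for each gene, the one with the most antibodies (ties by ab1 score, then, at Ephb2, by ab2 score, a step added after the values were seen) and those within 1 kb of the TSS. Neighbouring genes were named where closest to such a region or to more regions than the gene itself, and in each of the 2 further lists the 5 genes with the most regions and those with none (a tie left 4 in the signalling list). Efna1 and Chn1 were also named there for their scores, after these were seen. The genes and lists were chosen with earlier results of these data known. With 1 library per antibody no test between groups was made. Alternatives were a score of at least 100, 50% overlap, flanks of 10 kb, other windows, motifs and decay lengths, and leaving out each antibody. Python 3.11.15, numpy 2.4.6 and matplotlib 3.10.9 were used, and the steps were tested on simulated data.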

Additional observations from a re-analysis of the deposited data

How the results depend on the processing

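With a peak score of at least 100, 79 regions remained in place of 126, 50 in place of 77 with at least 2 antibodies and 7 in place of 19 with all 3. The share of regions with an extended E-box was 42.9% in the central 100 bp, 71.4% in the central 400 bp and 75.3% for any CANNTG. With the 200 bp window placed on the highest peak of the region it was 50.6%, and with a peak score of at least 100 it was 56%. The number of the 10 genes above the closest-gene threshold was 1 with a decay length of 1000 bp, 0 with regions of all 3 antibodies, 4 with a decay length of 50000 bp and 4 with a peak score of at least 100. When each antibody was left out in turn, the ranges were 86 to 126 for all regions, 19 to 77 for regions with at least 2 antibodies, 57.9% to 59.7% for the E-box share, 0 to 6 for regions within 1 kb of the TSS, 6 to 11 for the other Eph and ephrin genes, 17 to 30 for the signalling genes and 0 to 3 for genes above the threshold. The 86 came without ab1, and the other low ends came without ab1 and equally without ab2. The number of regions with all 3 antibodies could not be recomputed with an antibody left out. An overlap of 50% and the whole annotated gene in place of 1 transcript changed none of the counts of regions. A flank of 10 kb gave 93 regions, 56 with at least 2 antibodies, and left 9 of the 10 genes with such a region, since Efna2 went from 4 to 0. Efna3 went from 7 to 2, Ephb6 from 5 to 1 and Efnb3 from 3 to 1. For single genes under the alternatives, 43 counts of regions stayed within 1.5 times of those given and 27 did not. Of the closest-gene scores 55 moved by no more than the SD over the antibodies and 25 by more, but that SD can exceed the score itself, as at Efnb2, whose score of 0.985 became 0.000342 with regions of all 3 antibodies. None came from a test. No paired analysis was possible because the GFP libraries were not used and no groups were compared. With 1 library per antibody, differences between antibodies cannot be told apart from differences between libraries, and since read depth was not used here, a missing ab3 peak means only that none was called.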
